A study of Mus musculus with 25 samples.

Results

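The step from 0.35 to 0.7 mM hypochlorous acid (HOCl) was examined in RAW 264.7 cells, a mouse macrophage line, by setting 3 arrays of 0.7 mM against 3 arrays of 0.35 mM, 6 of the 25 arrays in the study. The question was how expression differs between cultures given these neighbouring doses; each culture received 1 dose. All cultures came from this one unmodified line, and the doses were each given for 6 h. Each array held RNA of 1 culture on an Affymetrix mouse whole-genome array, and the other doses were 0, 0.14, 1.4, 2.1, 2.8 and 3.5 mM. A transformed line stands for itself and not for macrophages of an animal. Every probe set except the array's control probe sets was tested, 45037 in all, and a gene was read from its brightest probe set that carries 1 gene symbol (18193 genes). Values are log2 signals with the median of each array at 0, so a difference of 1 is a 2-fold difference.

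HOCl is the oxidant that neutrophils make from hydrogen peroxide and chloride with myeloperoxidase. Cells answer such oxidants through NRF2, a transcription factor that KEAP1 holds in check and that switches on genes for glutathione, thioredoxin, NADPH, quinone and heme metabolism. Macrophages also carry inflammatory programs, in which NF-kB switches on cytokine and chemokine genes, and secreted interferon, through STAT proteins, switches on a large set of antiviral genes.

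No probe set passed the test of 0.7 against 0.35 mM over all arrays (limma with a mean per dose and the spread pooled over all 25 arrays, Benjamini-Hochberg adjustment, 0 of 45037, 0%). At an unadjusted p under 0.05 there were 2990 (6.64%), of which 2098 were higher at 0.7 mM (70.2%, or 51.1% of 2902 after quantile normalization). This count and its direction rested on single arrays. It was 1486 without replicate 2 of 0.35 mM, with 47.0% higher, and 5443 without replicate 3 of that dose, with 63.0% higher. It was 1779 on leaving out replicate 1 of 0.7 mM and 4064 on leaving out replicate 3. The lowest adjusted p was 0.144, for Creg1, a lysosomal glycoprotein (log2 0.96, SE 0.15). It had 5.40, 5.27 and 5.25 on replicates 1, 2 and 3 of 0.35 mM and 6.42, 6.56 and 5.81 on those of 0.7 mM, without overlap. Genes of antioxidant, detoxification and heme and iron metabolism lay higher on all 3 arrays of 0.7 mM than on any of 0.35 mM in 27 of 71 cases, beside 7.5% of all genes. So did 11 of 27 oxidative phosphorylation genes and 6 of 15 ribosomal protein genes. Inflammatory and interferon-stimulated genes were far lower on replicates 1 and 2 of 0.7 mM, while replicate 3 of that dose lay at the level of 0.35 mM.

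**Figure D1:**
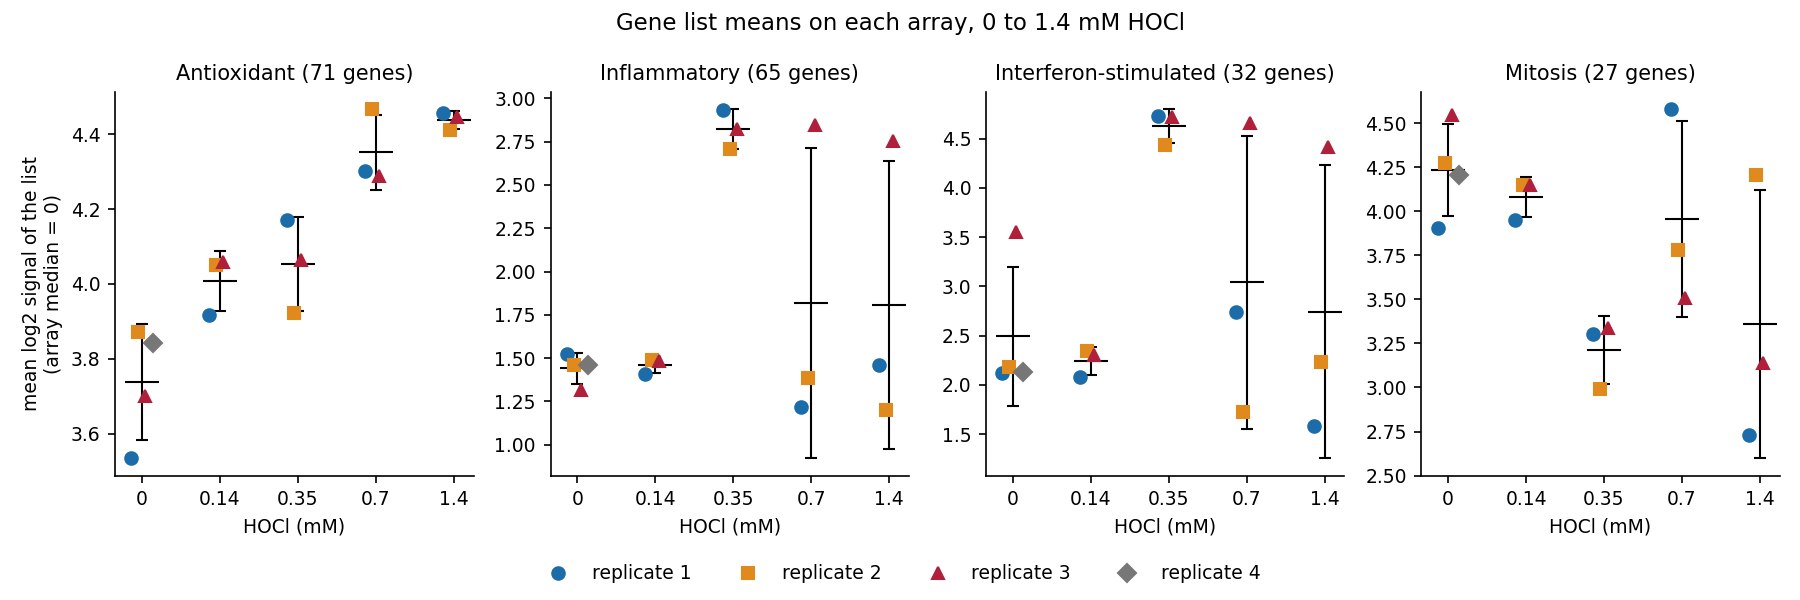
Mean log2 signal of 4 gene groups on each array (points, shaped by replicate number) at 0 to 1.4 mM HOCl, with the mean and SD of each dose (black bars, n = 4 at 0 mM and n = 3 elsewhere). The antioxidant mean lay between 4.29 and 4.47 on the 3 arrays of 0.7 mM, above all arrays of 0.35 mM, whereas the inflammatory mean on replicate 3 of 0.7 mM (2.84) stayed within the range of 0.35 mM and the other replicates lay at 1.22 and 1.38.

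Short stretches of the promoters show the sequence motifs by which these 2 responses are usually recognised. They come from RefSeq windows of 300 bases around each gene's start (mouse build GRCm38.p6, 27025 genes with a window). The antioxidant response element core, TGACNNNGC on either strand, is the motif NRF2 binds. It occurred in the windows of 16 of 65 antioxidant genes (24.6%), beside 13.99% of all genes. The same core occurred in 7 of 27 interferon-stimulated genes (25.9%) and 5 of 47 inflammatory genes (10.6%), so its share was not particular to the antioxidant lists. Capitals mark it in Gclm (chr3:122245398-122245456, plus strand), which begins 134 bases before the start, and in Txnrd1 (chr10:82859089-82859147, plus strand), 92 bases before. Both are matches on the opposite strand of the gene, so the reverse complement of the motif is read.
Gclm: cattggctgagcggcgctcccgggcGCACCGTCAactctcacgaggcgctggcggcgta
Txnrd1: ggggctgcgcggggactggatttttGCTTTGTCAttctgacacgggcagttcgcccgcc
The interferon response element, GAAA, any 2 bases and GAAA again on either strand, occurred in 15 of 27 interferon-stimulated genes (55.6%), beside 3.99% of all genes. It is in capitals for Ifit1 (chr19:34640760-34640819, plus strand), Rsad2 (chr12:26456538-26456597, minus strand) and Cxcl10 (chr5:92349068-92349127, minus strand), which begin 104, 120 and 213 bases before the start. The Ifit1 stretch also holds a further match, left in lower case, that begins 85 bases before the start.
Ifit1: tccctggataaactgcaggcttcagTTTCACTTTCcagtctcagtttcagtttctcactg
Rsad2: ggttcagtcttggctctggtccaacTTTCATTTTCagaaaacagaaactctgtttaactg
Cxcl10: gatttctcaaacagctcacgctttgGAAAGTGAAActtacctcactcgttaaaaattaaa
The NF-kB consensus occurred in 18 of 47 inflammatory genes (38.3%), beside 9.55% of all genes. It is in capitals for Cxcl2 (chr5:90903777-90903836, plus strand), where it begins 97 bases before the start and overlaps a further match shifted by 1 base.
Cxcl2: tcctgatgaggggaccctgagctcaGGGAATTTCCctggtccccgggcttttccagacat
The motifs were searched separately, so matches may overlap. A match describes the letters in the window and does not show that a factor was bound.

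Replicate 3 of 0.7 mM stood apart from the other arrays of its dose and lay close to replicates 1 and 3 of 0.35 mM. Whether the array labelled replicate 3 of 0.7 mM holds the dose on its label was not tested, and every mean and difference at 0.7 mM that includes it rests on that label. Across probe sets, replicate 3 of 0.7 mM and replicate 3 of 0.35 mM correlated at r = 0.997, which ranked 2 of the 300 pairs of arrays in the study. Not 1 of the 18193 genes differed more than 2-fold between them. Replicate 3 of 0.7 mM differed more than 2-fold from replicates 1 and 2 of its own dose at 617 and 963 genes. From replicate 1 of 0.35 mM it differed at 42 genes (r = 0.990) and from replicate 2 of that dose at 1318 (r = 0.964). Replicate 3 of 1.4 mM was also close to replicate 3 of 0.7 mM (r = 0.997, 3 genes over 2-fold). At 0.35 mM, replicate 2 was the least like the others, with 255 genes more than 2-fold from replicate 1 and 924 from replicate 3. Replicates 1 and 3 of that dose differed at 68 genes.

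The Bacillus poly-A control transcripts, which are added to the RNA before labelling and are not cell genes, also split the arrays. Their 5' probe sets averaged 0.83 to 1.06 on replicates 1 and 2 of 0.35 and 0.7 mM, 1.75 on replicate 3 of 0.35 mM and 2.22 on replicate 3 of 0.7 mM. The labels name no batch. The 1.4 mM arrays were all at the high level (1.83 to 2.15), and there the inflammatory mean was 1.46, 1.20 and 2.76 on replicates 1, 2 and 3. All arrays of 0 and 0.14 mM were at the low level and all from 1.4 mM up at the high level. Outside 0.35 and 0.7 mM, control level and dose therefore cannot be told apart. Each result is therefore given over all 6 arrays, then within replicates 1 and 2, which share the low control level, and for the single replicate 3 pair. In bulk RNA, fewer cells of a kind and less RNA per cell cannot be told apart.

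Without replicate 3 of 0.7 mM the same model called 296 probe sets, 122 higher and 174 lower. Within the low control level it called 444 (180 higher, 264 lower). With replicates 1 and 2 of both doses compared it called 68 (42 higher, 26 lower), the spread coming from all arrays except replicate 3 of these doses. The last fit was chosen after the data were seen. Its 41 genes included 39 that the low-level fit also called. Both fits take the step from the same arrays and differ only in the spread, so this overlap is no separate support. It was also tested whether the step in replicates 1 and 2 differed from that between the replicate 3 arrays, on the assumption that a lone array varies like the others: limma called 0 probe sets, with 886 at an unadjusted p under 0.05. That contrast was chosen after the arrays were seen and sets a step against a difference of 1 array from 1 array, so its lack of calls does not show that the steps were alike.

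Markers of the labelled cell type were present. Of 19 measured macrophage genes 16 were above 1 on all 6 arrays, among them Cd68, Csf1r, Lyz2 and Adgre1. Of 23 markers of other cell types 20 were above 1 on none of the 6. The exceptions were Epcam, an epithelial adhesion gene, Cd3e, a T cell receptor subunit, and S100a8. S100a8, a calcium-binding alarmin of neutrophils and activated monocytes, had 4.10, 4.18 and 3.90 on replicates 1, 2 and 3 of 0.35 mM and 0.11, -0.30 and 4.05 on those of 0.7 mM. The mean of the other cell type list ran from -0.07 to 0.02 at 0.35 mM and from -0.31 to -0.13 at 0.7 mM, and its part in the results was not tested.

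Of the 77 genes in 7 antioxidant lists 71 were measured. Their median difference between 0.7 and 0.35 mM was 0.20, beside 0.0032 over all genes, and 54 had the higher mean at 0.7 mM. All 3 arrays of 0.7 mM lay above all 3 of 0.35 mM for 27 of 71 genes, beside 7.5% of all genes, and lay below for 0, beside 2.89%. Quantile normalization, which takes away the different spread of the arrays, left 15 of 71 above and 2 below (all genes 4.74% and 4.76%), with a median of 0.13. The share above was not particular to these lists. It held for 11 of 27 oxidative phosphorylation genes and 6 of 15 ribosomal protein genes. Under quantile normalization it was 22.2% and 20% there, and 21.1% in the antioxidant lists. Between the replicate 3 arrays 66 of the 71 genes were higher at 0.7 mM, by a median of 0.17, where 11896 of all 18193 genes were higher, by a median of 0.07. After quantile normalization these counts were 50 of 71 and 9270 of 18193. In replicates 1 and 2 the fit called 5 antioxidant genes higher and 0 lower, where it called 0.126% of all genes higher and 0.0989% lower. Without replicate 3 of 0.7 mM alone it called 6 higher and 1 lower (Glrx), beside 0.385% and 0.599% of all genes. Within the low control level it called 6 higher and 2 lower (Glrx and Slc11a2), beside 0.451% and 0.874%.

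In the detoxification list the median difference was 0.50 (0.33 without replicate 2 of 0.7 mM) and 14 of 15 genes had the higher mean at 0.7 mM. Of these 7 did not overlap, beside 7.5% of all genes, and 4 were higher without overlap under quantile normalization, beside 4.74%. The list means were 2.05, 1.85 and 1.96 at 0.35 mM and 2.54, 2.97 and 2.25 at 0.7 mM. On the untreated arrays they were 2.30, 2.42, 2.00 and 2.46. Nqo1, the quinone reductase most used to read out NRF2, had 0.04, -0.62 and -0.09 on replicates 1, 2 and 3 of 0.35 mM and 1.32, 3.01 and 0.68 on those of 0.7 mM. The groups did not overlap, and replicate 3 was the lowest of the higher dose. The difference was 1.89 (3.71-fold, SE 0.41, limma adjusted p = 0.558), and 2.45 in replicates 1 and 2 (adjusted p = 0.046, with a range of 0.00893 to 1 over 36 alternatives). Cbr3, a carbonyl reductase, had 2.06, 1.16 and 2.14, then 3.51, 3.98 and 2.77, a difference of 1.64 (SE 0.35, adjusted p = 0.558). In replicates 1 and 2 it differed by 2.14 (adjusted p = 0.046, range over alternatives 0.00483 to 1).

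Other detoxification genes were led by replicates 1 and 2. Gstm1, a glutathione transferase, had 1.04, 0.89 and 1.05 at 0.35 mM and 2.01, 2.59 and 1.28 at 0.7 mM. Ephx1, an epoxide hydrolase, had 0.59, 0.35 and 0.51, then 1.504, 2.52 and 0.63. Mgst3, a microsomal glutathione transferase, had 3.10, 3.26 and 3.35, then 4.12, 5.17 and 3.48. In all 3 the arrays of the doses did not overlap, but replicate 3 of 0.7 mM was within 0.3 of the highest 0.35 mM value. None passed the test with all arrays or in replicates 1 and 2.

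The heme and iron list had 8 of 12 genes with the higher mean at 0.7 mM and a median of 0.19, or 0.13 without replicate 2 of 0.7 mM. Slc40a1, the iron exporter ferroportin, had 2.47, 1.88 and 2.47 on replicates 1, 2 and 3 of 0.35 mM and 3.88, 4.93 and 3.21 on those of 0.7 mM, a difference of 1.73 (3.32-fold, SE 0.39, limma adjusted p = 0.558). Slc48a1, which carries heme out of the lysosome, had 2.65, 2.42 and 2.41, then 4.45, 4.92 and 3.05, a difference of 1.65 (SE 0.38, adjusted p = 0.587). Both were called in replicates 1 and 2, by 2.23 (adjusted p = 0.0491, range over alternatives 0.00644 to 1) and 2.14 (adjusted p = 0.0418, range 0.00446 to 1). Of 12 genes 6 were higher without overlap, beside 7.5% of all genes, the others of these being Abcb6, Blvrb, Fech and Hmox1. Under quantile normalization 3 were higher and 1 lower without overlap, beside 4.74% and 4.76%.

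Hmox1, the heme oxygenase that opens the heme ring, was already high at 0.35 mM. It had 6.59, 6.34 and 6.12, then 6.91, 7.03 and 6.64, a difference of 0.51 (SE 0.22, adjusted p = 0.717). Its difference between the replicate 3 arrays was as large, 0.52. The list also held genes with lower values on replicates 1 and 2 of 0.7 mM, which were not called there. Slc11a2, a divalent metal transporter, had 3.39, 2.90 and 2.95, then 2.06, 1.62 and 3.04. Tfrc, the transferrin receptor, had 6.51, 6.18 and 6.62, then 5.81, 5.47 and 6.61. Ferritin heavy chain, Fth1, was level at 8.60 to 8.70 at both doses.

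**Figure D2:**
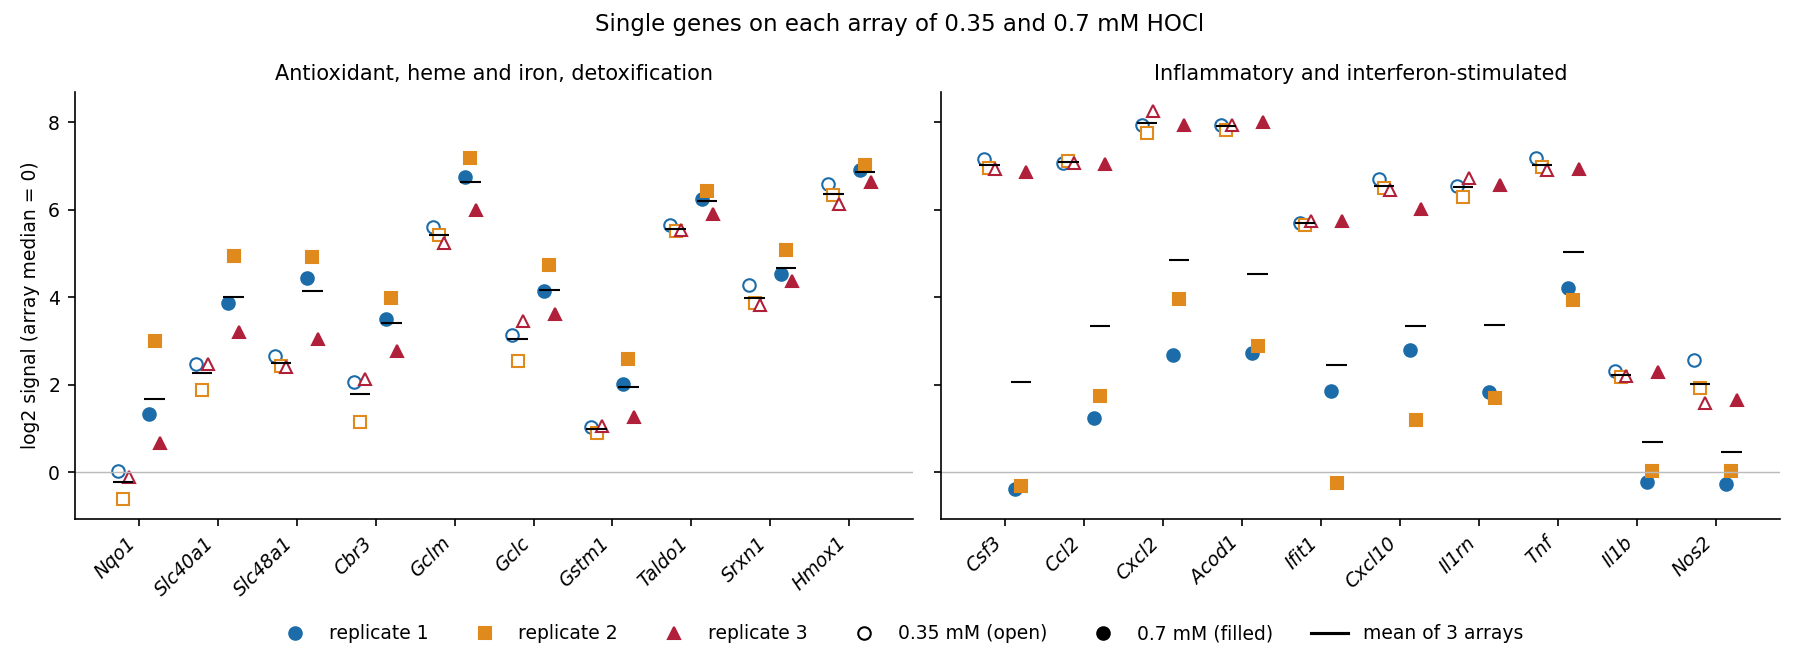
Log2 signal of single genes on each array of 0.35 mM (open) and 0.7 mM (filled), shaped by replicate number, with the mean of 3 arrays as a bar. Antioxidant genes such as Slc40a1 were higher on all 3 filled points, while Csf3 and Ccl2 were low on replicates 1 and 2 of 0.7 mM and at the 0.35 mM level on replicate 3.

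In the glutathione list 0 of 9 genes were called with all arrays or in replicates 1 and 2. Gclm and Gclc, the subunits of the enzyme that limits glutathione synthesis, were higher on every 0.7 mM array. Gclm had 5.61, 5.43 and 5.25 at 0.35 mM and 6.76, 7.18 and 6.00 at 0.7 mM, a difference of 1.22 (SE 0.37, adjusted p = 0.63), and its replicate 3 pair differed by 0.74. Gclc had 3.14, 2.55 and 3.45, then 4.14, 4.75 and 3.61 (difference 1.12, SE 0.33, adjusted p = 0.63). Slc7a11, which brings in cystine for the same pathway, went the other way in replicates 1 and 2, with 4.70, 4.33 and 4.80, then 3.76, 3.72 and 5.28. Its replicate 3 was the highest of the 6. Glrx, glutaredoxin, had 6.24, 6.25 and 6.72, then 3.52, 4.23 and 6.73, and was called lower without replicate 3 of 0.7 mM. The list as a whole had 6 of 9 genes higher and a median of 0.05, which turned to -0.06 under quantile normalization and to -0.07 without replicate 3 of 0.7 mM, and was 0.28 without replicate 2 of that dose.

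Of the thioredoxin genes, Srxn1, the sulfiredoxin that repairs peroxiredoxins, had 4.28, 3.86 and 3.82, then 4.54, 5.08 and 4.37 (difference 0.67, SE 0.42, adjusted p = 0.852). Txnrd1, thioredoxin reductase, had 6.08, 5.83 and 5.99, then 6.41, 6.71 and 6.11 (difference 0.44, SE 0.22, adjusted p = 0.763). Of the NADPH genes, Taldo1, transaldolase of the pentose phosphate path, had 5.65, 5.52 and 5.54, then 6.25, 6.42 and 5.91. Its groups were narrow and did not overlap, by 0.63 (SE 0.11, adjusted p = 0.336), and it was called in replicates 1 and 2 (0.75, adjusted p = 0.0313, range over alternatives 0.00209 to 1). The NADPH list had 7 of 8 genes higher and a median of 0.38. Genes for NRF2 itself and its partners, 9 in all, had a median of -0.04, which ran from -0.16 without replicate 2 of 0.35 mM to 0.15 without replicate 1 of that dose. Nfe2l2, the NRF2 gene, had 4.70, 4.36 and 5.01, then 5.03, 5.21 and 5.05.

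Inflammatory genes gave another picture. Of 65 measured genes for chemokines, cytokines, mediators and NF-kB regulators 56 had the lower mean at 0.7 mM, with a median of -0.66. For 24 of the 65 both replicates 1 and 2 of 0.7 mM lay below all 0.35 mM arrays and replicate 3 lay within their range, beside 4.49% of all genes. On all 3 arrays 7 were below, beside 2.89% of all genes, and 2 were above, beside 7.5%. After quantile normalization 19 were below, beside 4.76% of all genes, and 1 was above, beside 4.74%. Between the replicate 3 arrays the median was 0.02, and 36 of 65 were higher at 0.7 mM. Over all genes the median of that pair was 0.07, with 11896 of 18193 higher. After quantile normalization 19 of 65 were higher in that pair, with a median of -0.03, beside 9270 of 18193 genes.

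Csf3, granulocyte colony-stimulating factor, had 7.17, 6.96 and 6.94 on replicates 1, 2 and 3 of 0.35 mM and -0.37, -0.31 and 6.86 on those of 0.7 mM. Replicates 1 and 2 were at the level of untreated cells (mean -0.29, n = 4), and replicate 3 was 0.07 below its 0.35 mM counterpart. The mean difference of -4.96 had an SE of 1.61 (adjusted p = 0.63). Ccl2, a monocyte attractant, had 7.06, 7.12 and 7.07, then 1.24, 1.75 and 7.05. Cxcl2, a neutrophil attractant, had 7.94, 7.75 and 8.25, then 2.68, 3.97 and 7.93. The 3 genes share the shape of low, low and high at 0.7 mM.

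Acod1, which makes itaconate in activated macrophages, had 7.94, 7.83 and 7.94 at 0.35 mM and 2.72, 2.90 and 7.997 at 0.7 mM. Tnf had 7.18, 6.97 and 6.90, then 4.20, 3.95 and 6.93. Il1rn, the interleukin 1 receptor antagonist, had 6.54, 6.28 and 6.73, then 1.84, 1.70 and 6.56, and this brake on inflammation had the pattern of the cytokines. Ptgs2, cyclooxygenase 2, reached the untreated mean of 3.01 on replicate 1 of 0.7 mM, with 7.11, 6.70 and 7.33, then 3.02, 4.56 and 7.08. Socs3, a feedback inhibitor of cytokine signalling, had 5.20, 5.07 and 5.66, then 1.22, 3.04 and 5.77.

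In replicates 1 and 2 the fit called 3 inflammatory genes lower: Nos2, the inducible nitric oxide synthase, and the chemokines Ccl7 and Ccl12. Ccl12 was dim, below the array median on every array of both doses, with -0.16, -0.49 and -0.46, then -1.20, -1.36 and -0.52. Nos2 had 2.57, 1.93 and 1.59, then -0.27, 0.03 and 1.66, and differed by -2.37 (adjusted p = 0.0338, range over alternatives 0.0016 to 1). Without replicate 3 of 0.7 mM alone 20 of the 65 were called lower, beside 0.599% of all genes, and within the low control level 27, beside 0.874%. None of the 65 was called higher in these 3 fits, which called 0.126%, 0.385% and 0.451% of all genes higher. NF-kB regulators had the smallest median of the 4 lists, -0.21, against -1.05 for chemokines. The NF-kB median was -0.07 without replicate 1 of 0.35 mM and -0.44 without replicate 3 of 0.7 mM. That of mediators, -0.59, was -0.37 without replicate 2 of 0.7 mM and -1.01 without replicate 3. The medians of cytokines, -0.84, and chemokines became -1.26 and -1.59 without replicate 3 of 0.7 mM, and that of cytokines -0.56 without replicate 1. Nfkbia, the NF-kB inhibitor, had 6.996, 6.81 and 7.27, then 6.43, 6.75 and 7.25.

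All 32 measured interferon-stimulated genes had the lower mean at 0.7 mM, with a median of -1.42, and the replicate 3 pair had a median of -0.02. In that pair 11 of 32 were higher at 0.7 mM, beside 11896 of all 18193 genes. After quantile normalization 3 of 32 were, with a median of -0.13, beside 9270 of 18193. The median between the doses was -0.85 without replicate 2 of 0.7 mM and -2.18 without replicate 3. For 19 genes replicates 1 and 2 lay below and replicate 3 within the 0.35 mM range, beside 4.49% of all genes. Ifit1, an antiviral RNA-binding protein, had 5.70, 5.65 and 5.75 at 0.35 mM and 1.86, -0.25 and 5.73 at 0.7 mM. Rsad2, viperin, had 7.14, 6.89 and 7.39, then 3.31, 1.92 and 7.24. Cxcl10, an interferon-induced chemokine, had 6.71, 6.50 and 6.46, then 2.79, 1.19 and 6.03, so its replicate 3 was below all of 0.35 mM. Irf7, a master factor of interferon genes, had 5.84, 5.54 and 4.83, then 4.05, 4.03 and 4.79. The means of the list were 4.73, 4.43 and 4.72, then 2.74, 1.73 and 4.66. Replicate 2 of 0.7 mM was the lower of the low pair for the list, whereas the inflammatory mean was lower on replicate 1.

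The interferon genes were widely scattered at 0.7 mM. Over all genes the SD among the 3 arrays passed 1 for 205 genes at 0.7 mM and 13 at 0.35 mM. For the interferon list this was 25 of 32 and 0, and for chemokines 8 of 16 and 0. Ifnb1, which encodes interferon beta, had 0.94, 1.19 and 1.12 at 0.35 mM and -0.36, -0.02 and 0.97 at 0.7 mM. Zbp1, a nucleic acid sensor, was the 1 gene of the list called in replicates 1 and 2, with 4.03, 4.16 and 4.16, then 1.16, 0.61 and 4.11 (adjusted p = 0.0491, range over alternatives 0.00421 to 1). In replicates 1 and 2 the fit called 0.0989% of all genes lower. Without replicate 3 of 0.7 mM 11 interferon genes were called lower, beside 0.599% of all genes, and within the low control level 13, beside 0.874%.

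**Figure D3:**
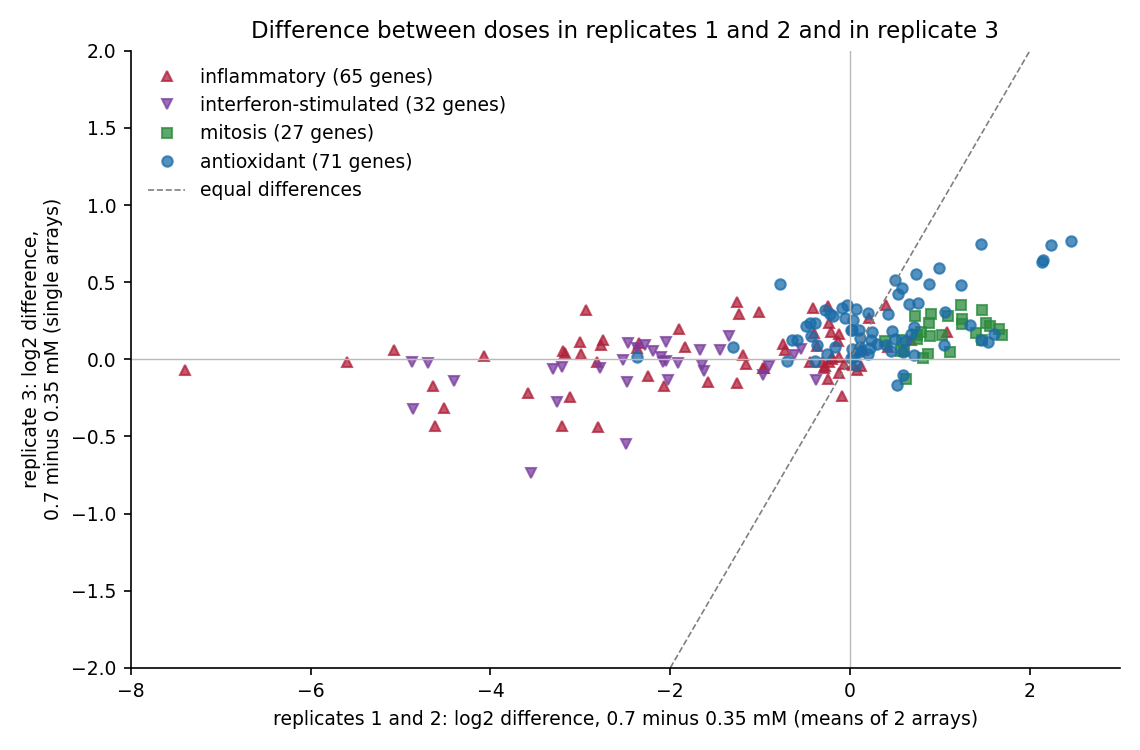
Difference between 0.7 and 0.35 mM in replicates 1 and 2 (horizontal, means of 2 arrays a dose) and between the single replicate 3 arrays (vertical) for each measured gene of 4 groups, in log2. Inflammatory and interferon-stimulated genes spread far to the left at vertical values near 0 (medians 0.02 and -0.02, all genes 0.07). Antioxidant genes lie mostly above 0 on the vertical axis (66 of 71, beside 11896 of all 18193 genes).

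Mitotic genes were higher at 0.7 mM than at 0.35 mM, where they were below the untreated level. All 27 measured had the higher mean, with a median of 0.69, and 17 were above on all 3 arrays without overlap, beside 7.5% of all genes. Under quantile normalization 9 were, beside 4.74%. The median was 0.42 without replicate 1 of 0.7 mM. Cdc20, which activates the anaphase-promoting complex, had 4.03, 3.75 and 4.33, then 5.78, 5.12 and 4.55 (difference 1.11, SE 0.33, adjusted p = 0.63). Cenpa, the histone of centromeres, had 3.58, 3.43 and 3.57, then 5.27, 4.76 and 3.81. Aurka, a spindle kinase, had 3.35, 3.35 and 3.27, then 4.95, 4.22 and 3.62. Replicate 1 was the highest and replicate 3 the lowest of the dose in all 3, and the list means were 4.58, 3.78 and 3.50 at 0.7 mM after 3.31, 2.99 and 3.34 at 0.35 mM. On the untreated arrays the list means were 3.90, 4.28, 4.54 and 4.21, so replicates 2 and 3 of 0.7 mM were below all of these. No mitotic gene was called in replicates 1 and 2, and 4 were called higher within the low control level, beside 0.451% of all genes. Of the DNA replication genes 18 of 27 had the lower mean, with a median of -0.07 that turned to 0.12 without replicate 2 of 0.7 mM and was -0.27 without replicate 3.

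Of the remaining lists, oxidative phosphorylation genes had the higher mean in 25 of 27 cases, with a median of 0.17 (0.10 without replicate 2 of 0.35 mM). Of these 11 did not overlap, beside 7.5% of all genes, and 6 did not under quantile normalization, beside 4.74%. Genes of the unfolded protein response of the endoplasmic reticulum were lower for 15 of 17 (median -0.25), and those that ATF4 controls for 17 of 22 (median -0.27). The former median was -0.07 without replicate 2 of 0.7 mM and -0.45 without replicate 3, and the latter -0.15 without replicate 1 and -0.46 without replicate 3. The list means of replicate 3 at 0.7 mM were 5.74 and 3.74, within 0.03 of the 0.35 mM range or inside it. Herpud1, which helps to clear misfolded proteins, had 5.15, 5.04 and 5.16, then 3.57, 3.39 and 5.43. Chac1, an ATF4 target that breaks down glutathione, had 3.28, 2.84 and 2.80, then 0.98, 1.00 and 2.92. Heat shock genes had a median of -0.02, which turned to 0.13 without replicate 2 of 0.7 mM. Hspa1b, an inducible HSP70, had 2.19, 1.17 and 2.70, then 2.73, 3.90 and 3.10. Hypoxia and glycolysis genes had a median of 0.18 (20 of 25 higher, 2 or 8% without overlap, near the 7.5% of all genes), which was 0.01 without replicate 2 of 0.7 mM and 0.30 without replicate 1 of 0.35 mM. All 15 ribosomal protein genes had the higher mean (median 0.12). Of these 6 did not overlap, beside 7.5% of all genes, and 3 did not under quantile normalization, beside 4.74%. Proteasome, toll-like receptor, immediate early and cholesterol genes had medians between -0.07 and 0.05, each of which changed sign on leaving out single arrays. The control genes had a median of 0.03, and Actb, beta-actin, had 8.50, 8.37 and 8.51, then 8.50, 8.29 and 8.42.

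The macrophage list gave no common direction, with 12 of 19 genes higher and a median of 0.12, but single members differed. Cx3cr1, the fractalkine receptor, had 1.91, 1.87 and 2.36, then 3.78, 4.04 and 2.38. Cebpa, a myeloid transcription factor, had 1.91, 1.47 and 1.28, then 3.50, 4.34 and 1.68, and was called in replicates 1 and 2 (2.23, adjusted p = 0.0418, range over alternatives 0.00626 to 1). Trem2, a lipid-sensing receptor, had 3.21, 3.29 and 3.20, then 4.73, 4.82 and 3.41. Fcgr1, the high-affinity receptor for IgG, had lower values on all 3 arrays of 0.7 mM. Among lipid genes Fabp4, a fatty acid carrier, had 5.57, 5.12 and 5.28, then -0.61, -0.65 and 5.31, and Lipa, the lysosomal acid lipase, had 5.02, 4.88 and 5.02, then 6.17, 6.43 and 5.14.

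Among genes above the array median whose arrays did not overlap, the 10 largest differences upward were those of Htr1b, Cldn11, Nqo1, Slc40a1, Cd300a, Slc48a1, Cbr3, Kbtbd11, Fzd7 and Cx3cr1, from 2.55 to 1.36. Htr1b, a serotonin receptor, had 0.81, -0.06 and 1.498, then 3.96, 4.05 and 1.88. Cldn11, a tight junction protein, had -0.41, -0.91 and -0.31, then 2.34, 2.06 and -0.14, so its replicate 3 was barely above the 0.35 mM range. The 10 largest downward were those of Csf3, Ccl2, Cxcl10, Lif, Oasl2, Anpep, Marcksl1, Dhx58, Dhrs3 and Tap1, from -4.96 to -1.14. Lif, a cytokine of the interleukin 6 family, had 3.52, 2.92 and 2.86, then -0.04, 0.06 and 2.43. Tap1, the peptide transporter of antigen presentation, had 3.65, 3.31 and 3.11, then 2.10, 1.45 and 3.09. In each of the 10 lower genes replicate 3 was nearer to the 0.35 mM arrays than to replicates 1 and 2, and none of the 20 passed the test with all arrays.

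It was also tested whether the step from 0.35 to 0.7 mM differed from the step before it, from 0.14 to 0.35 mM, since the 2 steps have the 0.35 mM arrays in common and cannot be compared as independent sets. The difference between steps was called for 427 of 45037 probe sets (0.948%), 351 positive and 76 negative, and for 160 genes positive (0.879%) and 53 negative (0.291%). Under quantile normalization the count was 698, split 362 and 336. The step from 0.14 to 0.35 mM alone had 1517 called probe sets (3.37%), and the one from 0.7 to 1.4 mM had 0 (0%). A positive difference means that 0.35 mM lies below the midpoint of the means at 0.14 and 0.7 mM, and a negative one that it lies above, which a rise that flattens also gives.

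Tmem51, a membrane protein, had the lowest p, with means of 2.46, 0.19 and 1.36 at 0.14, 0.35 and 0.7 mM and a difference between steps of 3.45 (SE 0.46, adjusted p = 0.0142). Htr1b had 3.93, 0.75 and 3.30 (difference 5.73, SE 0.85, adjusted p = 0.0215), Cx3cr1 4.74, 2.05 and 3.40 (4.05, SE 0.70, adjusted p = 0.0258) and Slc5a3, which imports the osmolyte inositol, 4.49, 2.59 and 3.80 (3.11, SE 0.50, adjusted p = 0.0258). Taldo1 had 6.06, 5.57 and 6.20 (1.11, SE 0.19, adjusted p = 0.0258). Cfap97 and Pcnp were likewise lower at 0.35 mM than at 0.14 and 0.7 mM. Ranbp3l was too (0.43, -0.41 and -0.16), but it stood out at 0.14 mM, with -0.25 at 0 mM and -0.45 at 1.4 mM. Siglec1, the sialic acid receptor CD169, peaked there, with 0.79, 1.81 and 0.90 (-1.92, SE 0.30, adjusted p = 0.0258), as did Gm4951. The adjusted p of these 10 genes reached 0.226 over their alternatives.

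Of the 71 antioxidant genes 3 were called for a positive difference between steps, Taldo1, Mgst3 and Gpx1, and 0 for a negative one. Of the 65 inflammatory genes 13 were called negative and 1 positive. Of the 32 interferon genes 3 were called negative (Ifit3, Zbp1 and Bst2) and 0 positive. Over all genes 0.879% were called positive and 0.291% negative.

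**Figure D4:**
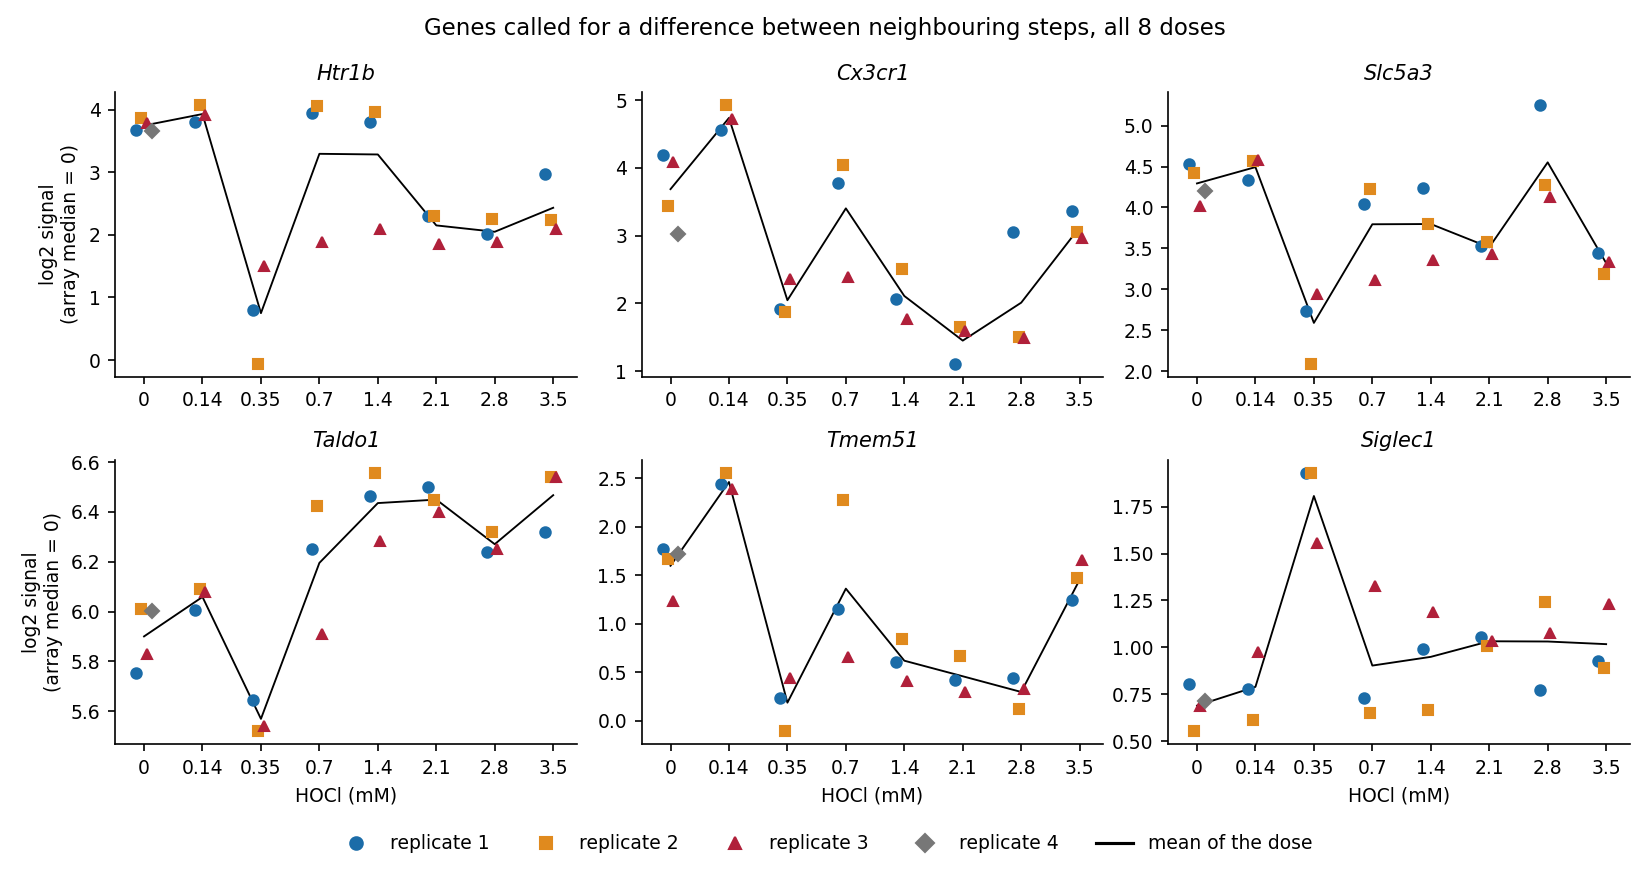
Log2 signal of 6 genes called for a difference between neighbouring steps on every array at all 8 doses, shaped by replicate number, with a line through the dose means. Htr1b, Cx3cr1, Slc5a3, Taldo1 and Tmem51 are lower at 0.35 mM than at 0.14 and 0.7 mM, and Siglec1 peaks there. Cx3cr1 and Tmem51 are low again at 1.4, 2.1 and 2.8 mM (means 2.11, 1.45 and 2.01, and 0.62, 0.46 and 0.30). Replicate 3 of 0.7 mM lies nearer to 0.35 mM than replicates 1 and 2 do.

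The count of 427 rested on single arrays. It was 0 when replicate 2 of 0.14 mM, or replicate 1 or 2 of 0.35 mM, was left out. Leaving out replicate 1 or 2 of 0.7 mM left 1 call, and leaving out replicate 3 of 0.14 mM left 3. At 2.1 mM, the count was 54, 46 and 54 on leaving out replicates 1, 2 and 3 in turn. At 3.5 mM it was 135 for replicate 2 and 202 for replicate 3, and at 0 mM 205 for replicate 2 and 101 for replicate 4. It was 214 for replicate 2 of 2.8 mM and 277 for replicate 1 of 0.14 mM. Larger counts came on dropping replicate 1 of 0 mM (666), replicate 3 of 1.4 mM (875), replicate 1 of 2.8 mM (1088) and replicate 3 of 0.7 mM (1845). Tmem51 kept its call in 22 of 25 such fits, Siglec1 in 20 and Htr1b, Cx3cr1, Slc5a3 and Taldo1 in 19 each. The fits that lost a call were among those that left out replicate 2 or 3 of 0.14 mM, or replicate 1 or 2 of either higher dose of the step.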

How the data were processed

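Total RNA of each culture was hybridized to 1 array. Per the submitters' processing notes the authors applied RMA, and per the labels they used Array Assist, so the deposited table holds a log2 signal for every probe set with each array's median at 0. No source used here gives the base of the logarithm. Base 2 was taken because values ran from -2.65 to 8.74, and folds rest on that. Of 45101 probe sets 64 controls were left out. Names came from the platform annotation: 34945 probe sets had 1 symbol, 932 several and 9160 none.

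Tests were two-sided with limma 3.58.1 in R 4.3.3 (default variance prior) and an adjusted p under 0.05 was called. Arrays were divided by the mean of 8 poly-A 5' control probe sets at 1.44. The members and gene lists (595 genes in 32 lists, 548 measured) were chosen with earlier results of these data known. Named genes were the 10 largest differences each way without overlap among genes brighter than the array median, the lowest p in each list (at most 4 genes), the 10 lowest p in the difference between steps, and a set given whatever their result. Outside this rule, Ephx1, Mgst3, Fech, Fth1, Tfrc, Slc11a2, Fcgr1 and the markers Cd68, Csf1r, Lyz2, Adgre1, Cd3e and Epcam were chosen after their values were seen. No gene could be named as past the test of the step, since none was called. By the labels replicates are biological, and p-values measure the spread between these arrays. Their number limits the precision. On simulated data with independent noise and no array apart, the test of 0.7 against 0.35 mM over 45037 probe sets called 84.1% of simulated differences of log2 1, 97.2% at log2 2 and 98.5% at log2 3, with 7 false among 194 calls. Alternatives changed the normalization, the probe sets, the variance prior, the arrays, their weights, a replicate block and a control-level term.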

Additional observations from a re-analysis of the deposited data

Results flagged for a closer look

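The poly-A control signal, which the comparisons do not use, was above every 0 mM array (0.744 to 1.12) on replicate 3 of 0.35 mM (1.75) and on replicate 3 of 0.7 mM (2.22). On replicates 1 and 2 of both doses it lay between 0.826 and 1.06. The hybridization controls did not follow this division: they were 4.67 on replicate 3 of 0.35 mM and 4.17 on replicate 3 of 0.7 mM, and 4.26 to 4.53 on the other 4 arrays. The differences between 3' and 5' probe sets of Actb ranged from 0.239 to 0.406 over the 6 arrays, with replicate 3 at 0.361 and 0.377. The part of the control level in the results was not tested beyond the fits given within the low level and with the level as a term. Groups of 3 arrays were not screened for single outlying values.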

How the results depend on the processing

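For the step from 0.35 to 0.7 mM, limma called 0 probe sets at an adjusted p under 0.05 under quantile normalization, recentring, the filter on dim probe sets, a trended and robust prior, the 6 arrays alone and 1 probe set per gene. It called 1 with the poly-A control level as a term, 444 on low-level arrays only, 68 in replicates 1 and 2 (chosen after seeing the data) and 0 to 296 on leaving out each array in turn, the 296 without replicate 3 of 0.7 mM. Array weights gave 18426, with weights of 0.161 to 95.6 from an estimate that did not converge, and gene-by-gene weights, also chosen after seeing the data, gave 1585. The difference between steps, 427 calls, gave 698 under quantile normalization (362 positive, 336 negative, against 351 and 76), 957 above the array median, 0 from the compared doses alone (6513 at an unadjusted p under 0.05), 24557 and 5330 with the respective weights, 167 with the control term, 1280 on low-level arrays, 1233 in replicates 1 and 2, and 0 to 1845 leaving out arrays. With the replicate number as a block the counts were 0 and 315, and the block changed neither count by over 1.5 times. Same-numbered arrays of 0.35 and 0.7 mM had residual correlations of 0.0372, 0.473 and 0.526 for replicates 1, 2 and 3. Replicate 2 of 0.35 mM with replicate 3 of 0.7 mM had -0.473, and replicate 3 with replicate 2 had -0.504. Same-numbered arrays thus shared variation for replicates 2 and 3. The labels name no batch, and the main fit does not take the numbers as pairs. List medians moved under quantile normalization for thioredoxin (0.0895), heme and iron (0.100), reactive oxygen enzymes (0.118), p53 targets (0.0338) and ribosomal proteins (0.0546). With all probe sets of each gene they were 0.0123 for heme and iron, 0.0942 for reactive oxygen enzymes and 0.114 for NRF2 and its partners, on low-level arrays 0.196 and -0.195 for the last 2 lists, and above the array median -1.72 for mediators and 0.254 for p53 targets. Leaving out arrays gave medians of -0.0733 to 0.280 for glutathione, 0.125 to 0.286 for heme and iron, 0.0977 to 0.244 for reactive oxygen enzymes, -0.164 to 0.149 for NRF2 and its partners, 0.102 to 0.197 for oxidative phosphorylation, 0.0564 to 0.335 for p53 targets and 0.0252 to 0.178 for metallothionein and zinc, -2.18 to -0.849 for interferon, -1.59 to -0.815 for chemokines, -1.26 to -0.556 for cytokines, -1.01 to -0.368 for mediators, -0.436 to -0.0718 for NF-kB, -0.445 to -0.0738 for the unfolded protein response, -0.461 to -0.147 for ATF4 and 0.417 to 0.938 for mitosis. Medians near 0 took both signs: toll-like receptors (-0.375 to 0.0700), immediate early (-0.0947 to 0.0789), heat shock (-0.112 to 0.134), proteasome (-0.151 to 0.0951), cholesterol (-0.0419 to 0.194), DNA replication (-0.266 to 0.122), foam cell lipid (-0.0403 to 0.133) and control genes (-0.0409 to 0.0656). Signs turned for genes with small differences: Tbp (-0.0171 under quantile normalization, -0.0409 to 0.291 leaving out arrays), Hsp90aa1 (0.00687 with array weights, -0.193 to 0.137), Hspa8 (-0.136 to 0.0377), Psmb6 (-0.388 to 0.00192), Cdc45 (-0.394 to 0.0239), Actb (-0.106 to 0.00295) and Sqstm1 (-0.388 to 0.0384). The cause of these changes was not tested.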
